A study of Solanum lycopersicum with 18 samples.

Results

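The responses of tomato (Solanum lycopersicum) roots and callus to 24 h of dexamethasone (DEX) were set against each other, feature by feature. For each feature the log2 fold in callus was subtracted from the log2 fold in roots, after each column had been centred on its own median (-0.13 in roots and 0 in callus). Features with a callus fold of exactly 1 were left out, which kept 4947 of the 5295 features in the authors' deposited table, a set of 5293 gene models and 2 transgenes. A positive difference means a larger fold in roots than in callus.

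The study put a DEX-inducible system for Rosea1 and Delila, a MYB and a basic helix-loop-helix (bHLH) regulator of pigment synthesis from snapdragon, into tomato. The groups compared here are roots given 10 mg/L DEX for 24 h, uninduced roots, callus given the same DEX for 24 h and uninduced callus, with 3 libraries in each, and the groups taken 3 h after DEX are given beside them. Uninduced samples are read here as carrying the system as well. None of the groups had DEX without the transgenes, so what DEX or handling does by itself and what the regulators do cannot be told apart. The cultivar, the number of transformed lines, the promoter of the system and whether replicate libraries stand for different plants or cultures are not given in the labels. In the authors' deposited table, Delila was 224-fold higher at 24 h in roots and 39.2-fold higher in callus. Rosea was 98.5-fold higher in roots and 62.1-fold higher in callus. The reference of the folds was read from these transgenes, so they are no separate check of that reading, nor of which tissue a column is from. The table holds folds and no levels, so markers could not check the tissue itself.

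Rosea1 and Delila act together with a WD-repeat protein as a complex that binds the promoters of flavonoid genes, and the pigments made are anthocyanins, which are glycosylated flavonoids kept in the vacuole. A root is an organised organ with a cap, a dividing tip, cortex and conducting tissue. Callus is an unorganised mass of cells that divide in culture. In such bulk RNA, fewer cells of a type and less RNA per cell cannot be told apart.

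The table holds 1 fold per comparison, read as DEX over uninduced samples of the same tissue. No value of a single library was analysed here. Depth, the spread between replicates and the precision of a fold are therefore unknown, no interval could be given and no difference below carries a test. A value written below as "at" or "had" a number in roots or in callus, with no other unit, is a centred log2 fold of DEX over uninduced at 24 h, and "difference" is the root value minus the callus value on that scale. "Higher" and "lower" mean a centred fold of at least 2 and nothing more. A feature was placed in 1 tissue only when its fold reached 2 there and not in the other tissue, and the folds also differed by at least 2-fold. A fold under 2 does not show that a gene did not respond. The deposited file's name says that the authors chose features by a false discovery rate of 0.05 and a 2-fold limit, in whichever comparison passed, so the count of a gene group covers its selected members and not the whole family.

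Most features had similar folds in the 2 tissues. The difference had a median of 0.04 on the log2 scale, with quartiles of -0.52 and 0.59 and a range of -7.69 to 9.19, and 3531 features (71.4%) differed by less than 2-fold. The root fold was at least 2-fold above the callus fold for 726 features (14.7%) and at least 2-fold below it for 690 (13.9%). In roots 696 features (14.1%) were higher and 859 (17.4%) lower, while in callus 955 (19.3%) were higher and 1138 (23%) lower. Both tissues were higher for 404 features (8.17%) and both lower for 504 (10.2%). Across features, which are not independent replicates, the 2 centred log2 folds had a Pearson correlation of 0.61.

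The features that differed numbered 1007 (20.4%). In roots only, 123 features (2.49%) were higher and 163 (3.29%) lower. In callus only, 280 (5.66%) were higher and 342 (6.91%) lower. Opposite directions were seen for 99 features (2%), of which 44 (0.889%) were higher in roots and lower in callus and 55 (1.11%) lower in roots and higher in callus. Without centring, the order of the callus-only counts turned, with 329 higher and 291 lower. A further 726 features (14.7%) passed 2-fold in 1 tissue but differed by less than 2-fold between tissues, and 2306 (46.6%) were under 2-fold in both.

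**Figure D1:**
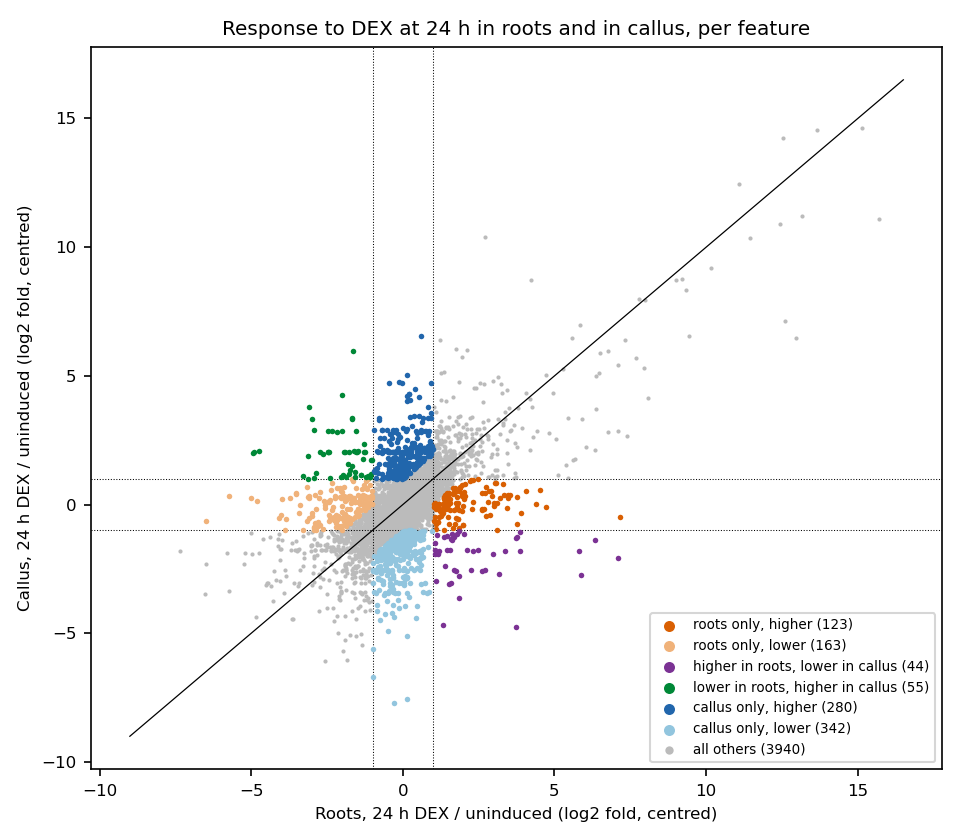
Each point is 1 of the 4947 features, with its centred log2 fold at 24 h in roots (horizontal) and in callus (vertical); dotted lines mark 2-fold, the solid line marks equal folds and colours mark the 6 kinds of difference. The 99 features in the upper left and lower right corners went in opposite directions, while the 404 features higher in both tissues run along the line up to a log2 fold of 15.71 in roots.

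Callus folds carried a feature that root folds did not. At 24 h, 181 callus folds fell into 7 narrow bins, 0.02 wide on the log2 scale, that each held at least 3 times as many features as the bins around them, such as the 52 features lower by between 3.39-fold and 3.43-fold. Roots had 0 such bins. Of the features kept, 329 (6.65%) lay in or next to a bin in callus. Bins were sought only at a fold of 2 or more, which 2093 of the features kept reached in callus, and the 329 are all among these. They made up 17 of the 44 features (38.6%) higher in roots and lower in callus and 21 of the 55 (38.2%) in the other opposite group. They were also 55 of the 280 higher in callus only (19.6%) and 87 of the 342 lower in callus only (25.4%). Every feature in these groups has a callus fold of at least 2 by definition, so 6.65% is not their background. What sets these near-equal folds was not tested. Genes in such a bin or next to it, up to 2 bins away, are described below as lying in a bin.

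The pigment pathway was among the features higher in both tissues, with unequal sizes along the pathway. Chalcone synthase, the enzyme that starts flavonoid synthesis, had a far larger fold in roots. In the authors' deposited table Solyc05g053550 was 2661-fold higher at 3 h and 7271-fold higher at 24 h in roots, against 1.67-fold at 3 h and 89.7-fold at 24 h in callus. Solyc09g091510, the other chalcone synthase, was 443-fold and 5701-fold higher in roots at the same times, against 4.67-fold and 142-fold in callus, in the authors' deposited table. Their differences at 24 h were 6.47 for Solyc05g053550 and 5.46 for Solyc09g091510 on the log2 scale. Flavanone 3-hydroxylase Solyc02g083860, which acts before the pathway branches to anthocyanins, followed with a centred log2 fold of 8.07 in roots and 4.15 in callus. Of the features described as chalcone--flavonone isomerase, Solyc05g052240 had 9.45 in roots and 6.55 in callus. Solyc05g010320, with the same description, had nearly equal values of 3.29 in roots and 3.11 in callus. The description does not tell which of them closes the flavonoid ring, so no root excess is read for that step.

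The remaining early genes did not share this size. Solyc06g073080, a flavonol synthase or flavanone 3-hydroxylase by its description, was at 0.03 in roots and lower in callus at -2.50. Its deposited root fold at 3 h was a 19.8-fold increase in the authors' deposited table. The flavanone 3-hydroxylase-like Solyc03g080190 was higher in roots only, at 1.06 against -0.47 in callus. Solyc08g061480, an isomerase, and Solyc09g066310, another flavonol synthase or hydroxylase, stayed under 2-fold in both tissues. Over the 9 early genes the median difference was 2.53, beside 0.04 over all features, and 6 had a root fold at least 2-fold above the callus fold.

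Late steps did not show this gap. Dihydroflavonol 4-reductase Solyc02g085020, which commits the pathway to anthocyanins, had a centred log2 fold of 12.54 in roots and 14.25 in callus. The hydroxylase of the B ring, Solyc11g066580, described as a cytochrome P450, had 15.14 in roots and 14.63 in callus. Anthocyanidin synthase Solyc08g080040, which forms the coloured aglycone, was alike, at 7.99 in roots and 7.94 in callus. Of the other features described as anthocyanidin synthase, Solyc10g085190 was at 2.22 in roots and 3.38 in callus, Solyc10g076660 at 0.60 in roots and 2.10 in callus, where it lay in a bin of near-equal folds, and the fragment Solyc08g006770 was under 2-fold in both tissues. The 6 late genes had a median difference of -0.64, and the 3 among them that were listed by identifier, Solyc02g085020, Solyc11g066580 and Solyc08g080040, had 0.05.

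Genes for decoration and transport were higher in both tissues, all 6 of them. The largest difference was that of Solyc03g025190, a transporter of the multidrug and toxin extrusion family, with 15.71 in roots and 11.09 in callus. The glutathione S-transferase Solyc02g081340, whose family helps carry anthocyanins to the vacuole, had 13.15 in roots and 11.20 in callus. The acyltransferase Solyc12g088170 had 12.44 in roots and 10.90 in callus. The glucosyltransferases Solyc10g083440, with 9.19 in roots and 8.77 in callus, and Solyc12g098590, with 13.67 in roots and 14.56 in callus, differed by less than 2-fold. The methyltransferase Solyc09g082660 had the larger fold in callus, with 11.07 in roots and 12.47 in callus.

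The 3 tomato regulators in the table were higher in both tissues. The bHLH factor Solyc09g065100 (AN1) had 11.45 in roots and 10.37 in callus, a difference of 1.08. The small MYB Solyc07g052490, known as a repressor of the pathway, had 7.32 in roots and 6.41 in callus. The WD-repeat protein Solyc03g097340 (AN11) had 1.69 in roots and 1.52 in callus.

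**Figure D2:**
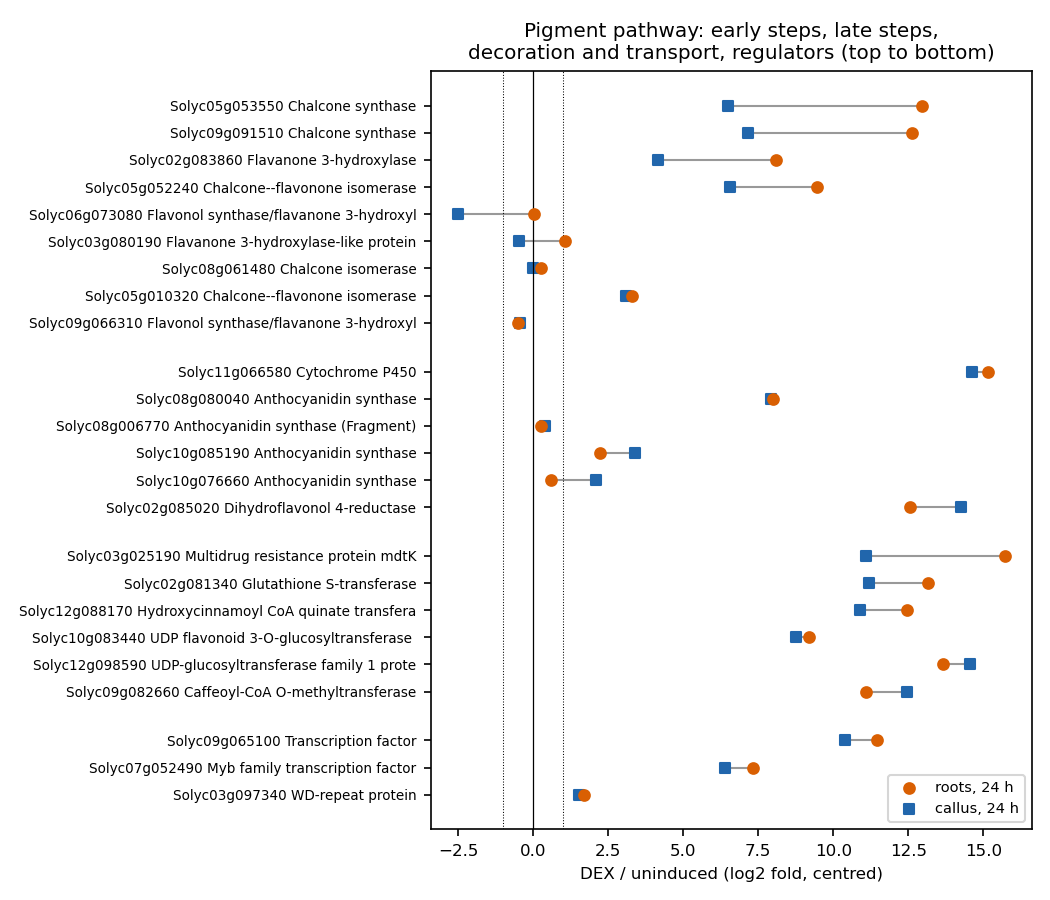
Centred log2 fold of DEX over uninduced at 24 h in roots (circles) and callus (squares) for the pigment genes, grouped from top to bottom as early steps, late steps, decoration and transport, and regulators; dotted lines mark 2-fold. The chalcone synthases and the transporter Solyc03g025190 show the widest gaps, with roots on the right, while anthocyanidin synthase Solyc08g080040 has its symbols at 7.99 in roots and 7.94 in callus.

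Phenylpropanoid entry genes act upstream of flavonoids. Among 20 features for phenylalanine ammonia-lyase, cinnamate 4-hydroxylase and 4-coumarate ligase, 10 were higher in roots (beside 14.1% over all features) and 14 in callus (beside 19.3%). None was lower in either, and the median difference was -0.48. In 5 of them (25%, beside 13.9% over all features) the root fold was at least 2-fold below the callus fold and in 0 of them (beside 14.7%) above it. Phenylalanine ammonia-lyase, which diverts phenylalanine into phenylpropanoids, held the 4 largest differences. Solyc10g086180 was higher in callus only, at -0.18 in roots and 2.44 in callus. Solyc05g056170, at 1.90 in roots and 3.44 in callus, Solyc09g007910, at 1.21 in roots and 2.50 in callus, and Solyc09g007890, at 1.01 in roots and 2.28 in callus, were higher in both. Features with the same description could share reads, so the values of single copies are uncertain.

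Lignan genes, on a side branch of the same chemistry, led the features higher in callus only. The pinoresinol-lariciresinol reductases, which make lignans, held the first 2 places in that group. Solyc06g066170 was 1.07-fold lower at 3 h and 1.37-fold higher at 24 h in roots, against 12.6-fold and 93.1-fold higher in callus, in the authors' deposited table. Its neighbour Solyc06g066160 had a centred log2 fold at 24 h of -0.45 in roots and 4.71 in callus. Their differences at 24 h were -5.96 for Solyc06g066170 and -5.17 for Solyc06g066160. The dirigent-like protein Solyc06g075630, of a family that guides the coupling of lignan precursors, was at -0.95 in roots and 2.90 in callus, whereas the dirigent-like Solyc04g008080 was at -0.12 in roots and -3.06 in callus, both in a bin of near-equal folds. Of the 37 features for lignin, laccases and dirigent proteins, 3 were higher (8.11%) and 4 lower (10.8%) in callus only, beside 5.66% and 6.91% over all features, and the median difference was -0.02.

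Of the 5 largest differences among features higher in roots and lower in callus, the first was that of a proteinase inhibitor. Proteinase inhibitor II Solyc03g020040, a wound-inducible inhibitor of digestive enzymes, had the largest difference of all, 9.19 on the log2 scale. In the authors' deposited table it had a fold of 1 at 3 h and was 125-fold higher at 24 h in roots, against 4.24-fold lower at both times in callus. The germin Solyc07g041720, described as oxalate oxidase-like, was 3.36-fold lower at 3 h and 53.6-fold higher at 24 h in roots, against 6.74-fold lower at both times in callus, in the authors' deposited table. A callus fold that is the same at both times was found for 14 of the 44 features of this group. It was found for 123 of the 4947 features kept, but these are not the background, since the group is lower in callus by definition. Among the other features lower in callus, it was found for 38 of the 342 lower in callus only and 65 of the 504 lower in both tissues.

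Pectinesterase Solyc01g091050, which removes methyl groups from wall pectin, had differing callus folds at the 2 times. It had a fold of 1 at 3 h and was 12.2-fold higher at 24 h in roots, against 12.1-fold and 26.8-fold lower in callus, in the authors' deposited table. Solyc12g011010, described as Meiosis 5, had a centred log2 fold of 6.35 in roots and -1.40 in callus. The lipoxygenase Solyc01g006540, of the family that oxygenates fatty acids on the way to jasmonate, had 5.80 in roots and -1.79 in callus, and its callus fold lay in a bin of near-equal folds.

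Other members of this group were named as being among the 4 largest differences of their gene lists. Carbonic anhydrase Solyc02g086820, which interconverts carbon dioxide and bicarbonate, had 3.18 in roots and -2.70 in callus. Glutathione S-transferase 3, Solyc05g006730, had 3.85 in roots and -1.79 in callus, and the lipase-like Solyc03g121180 had 3.74 in roots and -1.29 in callus. The bHLH factors Solyc01g090790, at 2.24 in roots and -2.53 in callus, and Solyc04g078520, at 1.40 in roots and -2.39 in callus, and the factor WRKY6 Solyc09g015770, at 1.05 in roots and -1.51 in callus, were also in it. Solyc01g090790 and Solyc05g006730 lay in bins of near-equal callus folds, and Solyc02g086820, Solyc03g121180, Solyc04g078520 and Solyc09g015770 did not.

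Of the 5 largest differences among features lower in roots and higher in callus, the first was that of a seed-type protein. Solyc10g078770, a late embryogenesis abundant protein of the type that protects drying seeds, was 11.7-fold higher at 3 h and 3.40-fold lower at 24 h in roots, against 41.6-fold and 62.3-fold higher in callus, in the authors' deposited table. Its difference at 24 h was -7.59. Extensins are glycoproteins that are crosslinked into the wall, and Solyc12g100110 (Ext1) was 180-fold and 32.9-fold lower in roots, against a fold of 1 at 3 h and 4.10-fold higher at 24 h in callus, in the authors' deposited table. The extensin-like Solyc01g006390 had a centred log2 fold of -4.93 in roots and 2.01 in callus. Threonine ammonia-lyase Solyc09g008670, which starts isoleucine synthesis, had -3.10 in roots and 3.80 in callus. The peroxidase Solyc02g082090 had -4.75 in roots and 2.08 in callus. The callus folds of Solyc12g100110, Solyc01g006390 and Solyc02g082090 lay in a bin of near-equal folds, and those of Solyc10g078770 and Solyc09g008670 did not.

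The same group held the blue copper-like protein Solyc12g042580, with -2.01 in roots and 4.27 in callus, and the metallocarboxypeptidase inhibitor Solyc07g007250, with -2.92 in roots and 2.89 in callus. It also held a chitinase, Solyc07g009510, of the enzymes that cut fungal cell walls, at -1.55 in roots and 2.87 in callus, and gibberellin 2-beta-dioxygenase Solyc03g116260, which inactivates gibberellin, at -1.07 in roots and 1.08 in callus. The callus folds of Solyc07g007250 and Solyc07g009510 lay in a bin of near-equal folds.

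Features higher in roots only were led by Solyc07g055950, a second feature described as Meiosis 5. It was 2.99-fold higher at 3 h and 131-fold higher at 24 h in roots, against 1.93-fold higher and 1.41-fold lower in callus, in the authors' deposited table. The translation initiation helicase eIF4A Solyc06g062800 had a centred log2 fold of 4.72 in roots and -0.10 in callus. The ethylene-responsive factor 4 Solyc03g026270 had 3.76 in roots and -0.76 in callus. Solyc09g057760, of a plant-specific family, had 4.39 in roots and 0.03 in callus. Solyc01g090970, a cortical cell-delineating protein, had 3.88 in roots and -0.32 in callus. None of the 123 features in this group lay in a bin of near-equal callus folds, since such bins were sought at 2-fold or more.

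Features lower in roots only included genes named for root tissues. Root cap protein 3, Solyc08g066590, was 7.50-fold lower at 3 h and 99.6-fold lower at 24 h in roots, against 6.70-fold higher and 1.55-fold lower in callus, in the authors' deposited table. The cortical cell-delineating protein Solyc03g091000 was 4.29-fold and 30.9-fold lower in roots, against 27.2-fold and 1.10-fold higher in callus, in the authors' deposited table. The xylanase inhibitor Solyc01g079920 had the largest difference of the group, -6.07, with a centred log2 fold of -5.73 in roots and 0.34 in callus. Alpha-galactosidase Solyc02g086530, which trims galactose from sugars, had opposite root folds at the 2 times: the authors' deposited table gives it as 16.7-fold higher at 3 h and 35.4-fold lower at 24 h. Its centred log2 fold at 24 h was -5.01 in roots and 0.27 in callus. The peroxidase Solyc05g046020 had -3.99 in roots and 0.22 in callus.

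All 3 features described as root cap proteins were lower in roots (beside 17.4% over all features). Of these, 2, Solyc11g069280 and Solyc07g063490, were lower in callus too (beside 10.2% lower in both). The 11 cortical cell-delineating proteins are a list chosen after values were seen. In roots only, 5 were lower (45.5%, beside 3.29% over all features) and 1 was higher (9.09%, beside 2.49%). In both tissues 2 were lower (18.2%, beside 10.2%), and the median difference was -1.17, beside 0.04. A further 5 with a callus fold of exactly 1 were all lower in roots, beside 143 of the 348 features left out. Most features left out could enter the table only through a root comparison, so their root response is partly set by that choice.

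After the lignan reductases above, the features higher in callus only were led by Solyc04g078450, a protein of unknown function, 10.2-fold higher at 3 h and with a fold of 1 at 24 h in roots, against a fold of 1 at 3 h and 33.2-fold higher at 24 h in callus, in the authors' deposited table. The terpene synthase Solyc01g105960, which makes the volatile beta-ocimene, was 1.97-fold and 1.21-fold lower in roots, against 52.6-fold and 27.1-fold higher in callus, in the authors' deposited table. The nodulin-like Solyc03g118900 had a centred log2 fold of -0.04 in roots and 4.71 in callus. None of these 3 lay in a bin of near-equal folds.

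Features lower in callus only held the lowest centred folds of callus. Pectate lyase Solyc05g014000, which cuts wall pectin, was 6.88-fold lower at 3 h and 1.33-fold lower at 24 h in roots, against 2.72-fold and 211-fold lower in callus, in the authors' deposited table. Solyc06g076420, of unknown function, was 3.54-fold higher at 3 h and had a fold of 1 at 24 h in roots, against 4.47-fold and 188-fold lower in callus, in the authors' deposited table. Solyc03g007570, described as the efflux protein corC, had a centred log2 fold of -0.97 in roots and -6.71 in callus. The ABC transporter Solyc04g070970 had a root fold of exactly 1 at both times in the authors' deposited table, which centring sets to 0.13 at 24 h, and -5.12 in callus, and the ethylene-responsive factor 12 Solyc01g067540 had 0.44 in roots and -4.42 in callus. None of these 5 lay in a bin of near-equal folds. A root fold of exactly 1 at 24 h, as in Solyc06g076420, Solyc04g070970 and Solyc04g078450, was found for 20 of the features kept, and for these the root response is as unknown as the callus response of the features left out.

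Genes for photosynthesis had the highest median difference, 0.48, among the 26 lists with at least 20 members that were not added after values were seen. Of 50 features for light harvesting and the photosystems, 37 were higher and 0 lower in roots, whereas 16 were higher and 3 lower in callus, beside 14.1% higher and 17.4% lower in roots and 19.3% higher and 23% lower in callus over all features. In roots only, 8 were higher (16%, beside 2.49% over all features), and 3 more were higher in roots and lower in callus (6%, beside 0.889%). The other classes that differ held 0, beside 3.29% lower in roots only, 5.66% higher and 6.91% lower in callus only, and 1.11% lower in roots and higher in callus. In all, 11 of the 50 differed (22%), which is near the 20.4% over all features. Without the features in bins of near-equal callus folds, 8 of 47 differed (17%, beside 17.9%). Of the 50, 40 had a larger centred fold in roots. Chlorophyll a-b binding protein 4, Solyc06g069730, which holds pigment in the antenna, had a fold of 1 at 3 h and was 72.8-fold higher at 24 h in roots, against a fold of 1 and 4.40-fold higher in callus, in the authors' deposited table. Solyc02g071010, with 3.36 in roots and -1.80 in callus, Solyc12g011280, with 2.71 in roots and -2.55 in callus, and the photosystem II protein Solyc06g084050, with 1.68 in roots and -2.52 in callus, went in opposite directions, and each had a callus fold in a bin of near-equal folds.

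The genes higher in roots only have a callus fold under 2 by definition, so they could not lie in those bins. Those named here were chosen after values were seen. Oxygen-evolving enhancer protein 3, Solyc05g007780, had 2.73 in roots and -0.45 in callus, and the binding protein Solyc03g115900 had 3.21 in roots and 0.26 in callus. At 3 h the list stood below zero in both tissues, with median centred log2 folds of -1.47 in roots and -0.99 in callus, beside 1.24 in roots and 0.68 in callus at 24 h. The times share their uninduced samples, and the labels do not give the time of day at which any group was taken. Another 8 photosynthesis features with a callus fold of exactly 1 were all higher in roots, beside 52 of the 348 features left out. A root response among features left out is partly set by how the authors chose features, so these 8 add no support. A list of 23 genes for carbon fixation and photorespiration was chosen after values were seen. In it, 9 were higher in roots (beside 14.1% over all features) and 5 in callus, which is near the 19.3% over all features. In this list 4 were higher in roots and lower in callus (17.4%, beside 0.889%), of which Solyc02g086820 alone had a callus fold outside the bins.

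**Figure D3:**
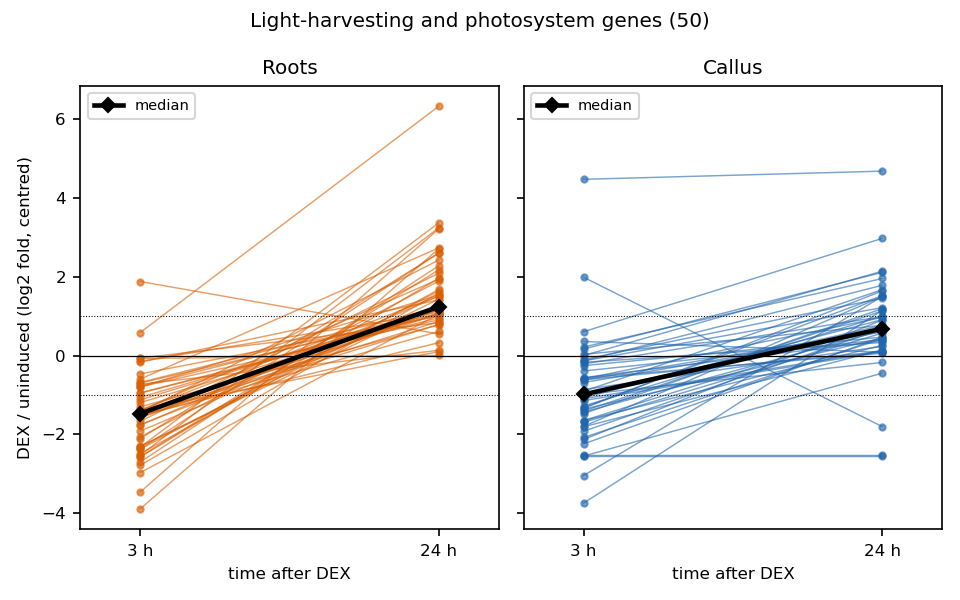
Each line is 1 of 50 light-harvesting and photosystem features, with its centred log2 fold of DEX over uninduced at 3 h and 24 h in roots (left) and callus (right); the black line joins the medians and dotted lines mark 2-fold. In roots all 50 values at 24 h lie above 0, while in callus Solyc12g011280 and Solyc06g084050 keep the same values at both times, -2.55 for Solyc12g011280 and -2.52 for Solyc06g084050.

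The share of features that differ ranged widely over the lists. It was 50% for bHLH factors (13 of 26), 36.6% for peroxidases (15 of 41), 36.4% for pectin enzymes (20 of 55) and 36.4% for extensins and other structural wall proteins (12 of 33), beside 20.4% over all features. It was 3.45% for histones (1 of 29) and 9.47% for cell cycle genes (9 of 95). Without the features in bins of near-equal callus folds, 9 of 21 bHLH factors (42.9%), 11 of 33 peroxidases (33.3%), 15 of 43 pectin enzymes (34.9%) and 7 of 26 structural wall proteins (26.9%) differed, beside 827 of 4618 features (17.9%). These lists are small, and the counts describe the table.

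**Figure D4:**
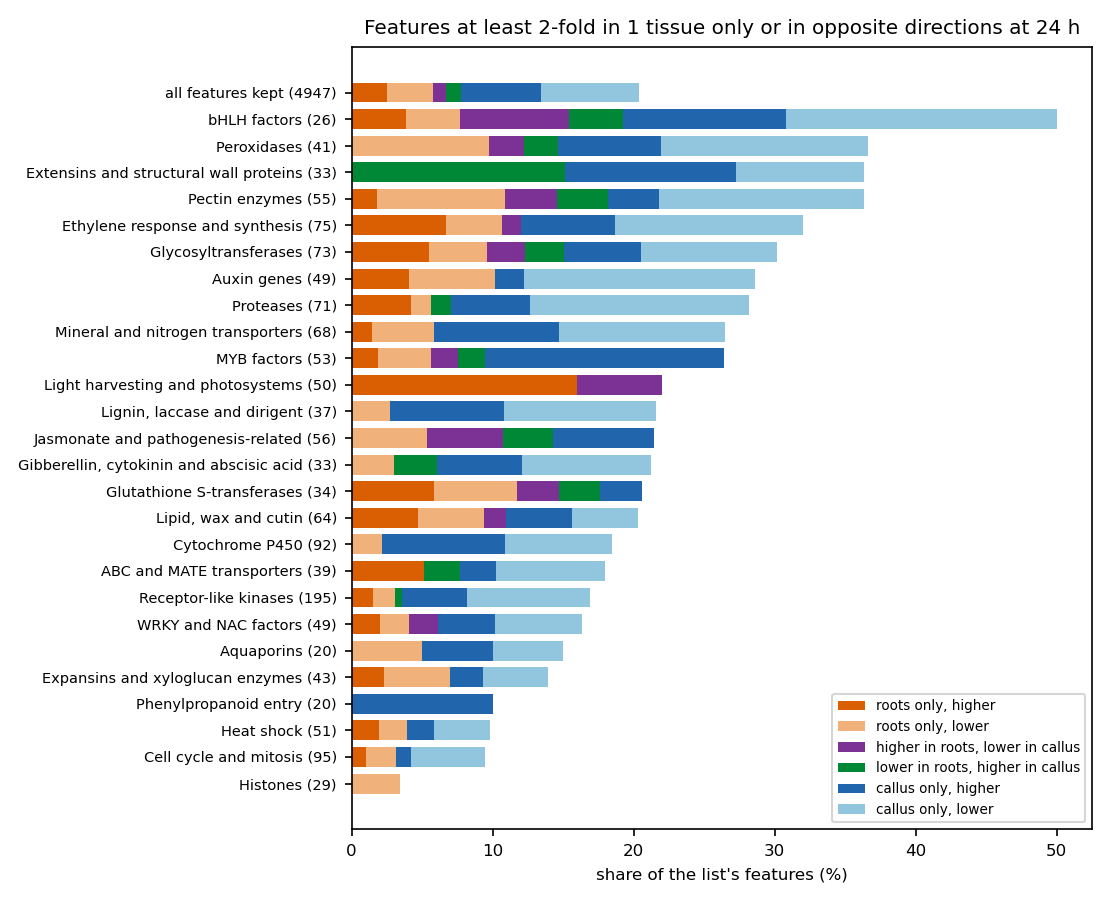
Bars give, for all 4947 features and for each of 26 lists with at least 20 members, the percentage of members in each of the 6 classes that differ between tissues (number of members in parentheses). The bHLH list reaches 50% and the histone list 3.45%, beside 20.4% for all features, and the light-harvesting bar holds root-higher colours alone.

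Of 33 extensins and structural wall proteins, 5 were lower in roots and higher in callus (15.2%, beside 1.11% over all features). In callus only, 4 were higher (12.1%, beside 5.66%) and 3 lower (9.09%, beside 6.91%), and 0 were higher in roots in any class (beside 14.1%). The median difference was 0.04, beside 0.04. The root fold was at least 2-fold above the callus fold for 5 (15.2%, beside 14.7%) and below it for 9 (27.3%, beside 13.9%). Another 11 had a callus fold of exactly 1, of which 10 were lower and 1 higher in roots, beside 143 and 52 of the 348 left out. Besides the extensins above, those lower in roots and higher in callus included the fasciclin-like arabinogalactan protein Solyc06g075220, with -2.01 in roots and 2.87 in callus in a bin of near-equal folds. They also included the extensin-like Solyc01g005850 (Dif54), with -2.64 in roots and 1.97 in callus, and Solyc01g097720 (Dif10), with -2.88 in roots and 1.21 in callus. The last was named after its values were seen. Pectinesterases, a list of 29 chosen after values were seen, had members in 5 of the 6 classes. Solyc03g083730 was higher in roots only, at 4.07 against 0.54 in callus, and Solyc02g081990 was lower in roots only, at -3.14 against 0.70 in callus. Expansins and enzymes of xyloglucan and cellulose loosen and build the wall. Of these 43 features, 13 were lower in both tissues (30.2%, beside 10.2% over all features) and 6 differed (14%, beside 20.4%).

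Peroxidases, which crosslink wall polymers, were lower more often than higher in both tissues, as were all features together. In roots 17 of 41 were lower (beside 17.4% over all features) and in callus 19 (beside 23%). Of those that differ, 4 were lower in roots only (9.76% of the list, beside 3.29%) and 6 lower in callus only (14.6%, beside 6.91%). Solyc01g006300 was at -0.36 in roots and -4.21 in callus at 24 h. At 3 h it was 113-fold lower in roots and 3.52-fold lower in callus in the authors' deposited table. Peroxidase 1, Solyc10g076190, was higher in roots at 1.74 and lower in callus at -2.59, in a bin of near-equal folds. Another 18 peroxidases had a callus fold of exactly 1, of which 11 were lower and 1 was higher in roots. Of all 348 features left out, 143 were lower and 52 higher in roots.

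Of 53 MYB factors, 9 were higher in callus only (17%, beside 5.66% over all features) and 0 lower in callus only (beside 6.91%), and the median difference was -0.40, beside 0.04. The root fold was at least 2-fold below the callus fold for 15 of them (28.3%, beside 13.9%) and above it for 4 (7.55%, beside 14.7%). Solyc10g055410, higher in both, had the largest difference, with 1.22 in roots and 6.38 in callus, and Solyc08g076710 was higher in callus only, at -0.76 in roots and 2.57 in callus. Solyc04g079600 was lower in roots at -1.02 and higher in callus at 1.72, and Solyc03g096350 was the reverse, at 1.56 in roots and -1.77 in callus, in a bin of near-equal folds. The bHLH genes had no common direction, with a median difference of -0.20. Solyc10g079650 was lower in roots only, at -3.42 against -0.31 in callus, and Solyc02g078130 was lower in roots and higher in callus, at 24 h 2.67-fold lower in roots and 4.14-fold higher in callus in the authors' deposited table, in a bin of near-equal callus folds.

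Of 49 WRKY and NAC factors, 8 (16.3%) differed, beside 20.4% over all features. The WRKY factor Solyc02g094270 had the largest difference, higher in both tissues, with a centred log2 fold of 5.68 in roots and 1.76 in callus.

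Of 75 features for ethylene synthesis and response, 24 differed (32%, beside 20.4% over all features). In roots only, 5 were higher (6.67%, beside 2.49%) and 3 lower (4%, beside 3.29%). In callus only, 5 were higher (6.67%, beside 5.66%) and 10 lower (13.3%, beside 6.91%), and 1 was higher in roots and lower in callus. The last was Solyc02g036350, a 1-aminocyclopropane-1-carboxylate (ACC) oxidase, the enzyme that releases ethylene, with 2.47 in roots and -1.75 in callus, in a bin of near-equal folds. ACC oxidase Solyc12g005940 was at -0.40 in roots and 2.75 in callus, while Solyc02g081190 was at -0.26 in roots and -2.11 in callus. The ethylene-responsive factor 13 Solyc06g066540 was at 0.54 in roots and 4.19 in callus.

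Of 49 auxin genes, 14 differed (28.6%, beside 20.4% over all features), and 8 were lower in callus only (16.3%, beside 6.91%). The conjugating enzyme GH3-like Solyc12g005310 was at 0.60 in roots and -2.36 in callus. The efflux carrier Solyc07g006900, which moves auxin out of cells, was lower in roots only, at -2.91 against -0.72 in callus. The auxin-induced Solyc05g046320 was higher in roots only, at 1.73 against -0.75 in callus. Among 33 genes of gibberellin, cytokinin and abscisic acid, 7 differed (21.2%), which is near the share over all features. Gibberellin 3-beta-hydroxylase Solyc06g066820, which makes active gibberellin, was higher in both, at 1.27 in roots and 4.07 in callus.

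Of 56 jasmonate and pathogenesis-related genes, 18 had a root fold at least 2-fold below the callus fold (32.1%, beside 13.9% over all features) and 4 at least 2-fold above it (7.14%, beside 14.7%), with a median difference of -0.34. The defensin Solyc07g007750, a small antimicrobial protein, had the most negative difference of all features, -7.69. It was 1.17-fold lower at 3 h and 6.02-fold higher at 24 h in roots, against a fold of 1 and 1362-fold higher in callus, in the authors' deposited table. Since both tissues passed 2-fold, it belongs to the features higher in both.

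Of 68 carriers of minerals and nitrogen, 18 differed (26.5%, beside 20.4% over all features), with 6 higher (8.82%, beside 5.66%) and 8 lower (11.8%, beside 6.91%) in callus only. The phosphate transporter Solyc09g066410 was at -0.80 in roots and 3.29 in callus, the nitrate transporter Solyc08g007430 at -2.91 in roots and 0.36 in callus, and the potassium transporter Solyc05g005720 at 3.48 in roots and 0.26 in callus. Of 39 ABC and MATE transporters, 7 differed (17.9%). ABC transporter Solyc01g105450 was higher in both, at 7.39 in roots and 2.67 in callus, and Solyc12g098210 was higher in both with the larger fold in callus, at 1.95 in roots and 5.72 in callus. The aquaporin Solyc08g008050, a water channel, was lower in roots only, at -2.24 against 0.26 in callus, as 1 of 3 of the 20 aquaporins (15%) that differ.

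Genes of dividing cells had nearly equal medians in the 2 tissues. Of 29 histones, 11 were lower in both (37.9%, beside 10.2% over all features). Higher histones numbered 0 in either tissue, beside 14.1% of all features in roots and 19.3% in callus. The median centred log2 fold of histones was -0.96 in roots and -0.98 in callus. Histone H2B Solyc11g007930 was the exception, lower in roots only at -1.41 against 0.23 in callus. Of 95 cell cycle genes, 20 were lower in both (21.1%, beside 10.2%), and the medians were -0.81 in roots and -0.85 in callus. Cyclin D1 Solyc03g006670, which admits cells to division, was lower in roots only, at -1.61 against 0.27 in callus, and the cyclin A-like Solyc12g088520 was lower in callus only, at -0.41 in roots and -2.88 in callus.

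Beside 20.4% over all features, 33 of 195 receptor-like kinases (16.9%), 17 of 92 cytochromes P450 (18.5%), 22 of 73 glycosyltransferases (30.1%) and 20 of 71 proteases (28.2%) differed. Of the proteases 11 (15.5%) were lower in callus only, beside 6.91% over all features, led by the cathepsin B-like Solyc02g077040, at 0.66 in roots and -3.40 in callus, in a bin of near-equal folds. The subtilisin-like Solyc01g087780 was higher in both at 24 h, with 6.05 in roots and 2.26 in callus. At 3 h the authors' deposited table gives it as 8.89-fold lower in roots.

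Neighbouring genes with the same leading description words were compared in pairs. Words such as protein, like and family were dropped first, so the full descriptions of a pair can differ. There were 458 pairs whose identifiers lay within 100 of each other on the same chromosome, and 24 of them (5.24%) had 1 member with a root fold at least 2-fold above and the other at least 2-fold below the callus fold. In 17 pairs (3.71%) both root folds were above and in 29 (6.33%) both were below. Over all features 14.7% were above and 13.9% below, so some pairs of each kind would be met among unrelated genes, and nothing particular to neighbours is read from these counts. Of the 24 pairs, 16 held no feature in a bin of near-equal callus folds. The pairs named here were chosen after their values were seen, and reads shared between copies could alter such values.

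Proteinase inhibitor II gave the widest pair. Solyc03g020040, at 7.10 in roots and -2.08 in callus, lies near Solyc03g020070, at -3.30 in roots and 1.09 in callus, and near Solyc03g020080, at -3.57 in roots and -1.75 in callus. Among pectinesterases, Solyc03g083770 was at 2.11 in roots and -1.77 in callus, in a bin, and Solyc03g083840 was lower in both, with a root fold at least 2-fold below its callus fold. The adjacent chlorophyll a-b binding genes Solyc03g005760, at 2.60 in roots and -0.18 in callus, and Solyc03g005770, at 3.24 in roots and 4.67 in callus, were both higher in roots and differed in callus. Ornithine decarboxylase, which starts polyamine synthesis, was lower in roots only for Solyc03g098300, at -3.13 against 0.28 in callus, and under 2-fold in both for Solyc03g098310. Serpins, proteinase inhibitors of another fold, gave Solyc04g079450 at 2.02 in roots and -1.16 in callus and its neighbour Solyc04g079460 at -1.39 in roots and 1.15 in callus. Their descriptions differ in wording, so they are not among the 24 pairs.

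**Figure D5:**
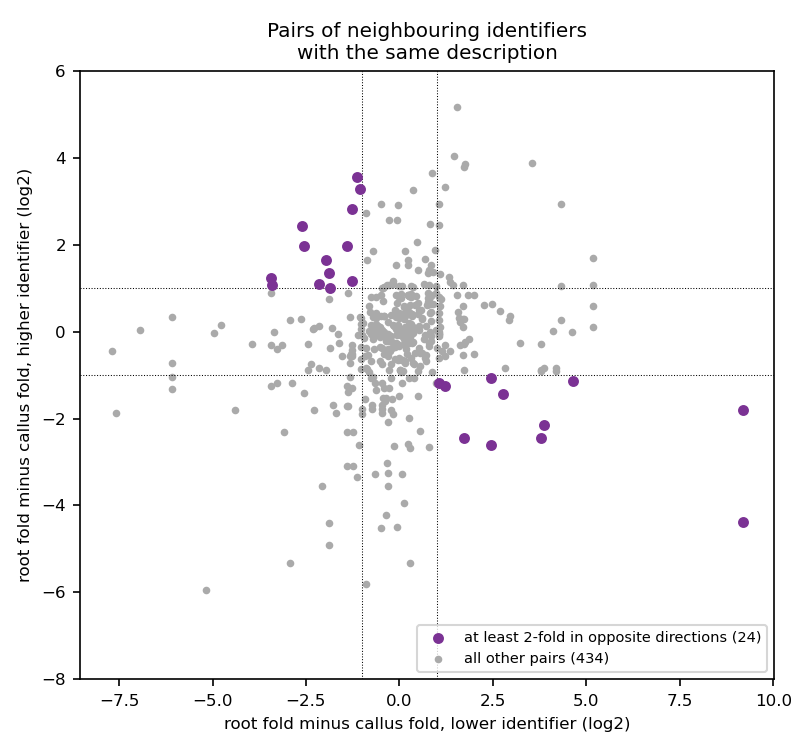
Each point is 1 of 458 pairs of neighbouring identifiers with the same leading description words. Axes give the root minus callus difference in log2 fold at 24 h of the lower identifier (horizontal) and of the higher identifier (vertical), and dotted lines mark 2-fold. The 24 coloured pairs lie in the upper left and lower right, and the proteinase inhibitor pairs sit farthest right, at 9.19.

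The 3 h values of the classes are given beside the 24 h values as a description, since both times share the uninduced samples and the classes were formed from 24 h folds. The median over all features at 3 h was 0.15 in roots and -0.06 in callus. Features higher in roots only at 24 h had a median centred log2 fold at 3 h of 2.36 in roots and -0.02 in callus, and those lower in roots only had -1.37 in roots and -0.57 in callus. Features higher in callus only had 0.62 in roots and 1.24 in callus, and those lower in callus only had -0.18 in roots and -1.13 in callus. Features higher in roots and lower in callus at 24 h had a median at 3 h of 0.58 in roots, which is a fold of exactly 1 in the authors' deposited table after centring, and -1.76 in callus. The reverse group had -0.74 in roots and 0 in callus, where 0 is again a fold of exactly 1 in the authors' deposited table.

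The limit of 2-fold cuts through a continuous range of differences. On the side of larger root folds, Solyc07g005090, a chitinase, lay just inside and Solyc05g007470, an ATPase, just outside. On the other side the hemoglobin Solyc03g071690 lay just inside and the NAC factor Solyc06g063430 just outside. Solyc07g005090 and Solyc03g071690 were under 2-fold in each tissue taken alone.

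The 348 features left out, with a callus fold of exactly 1 at 24 h, had no callus response to compare. The authors' deposited table gives a callus fold of 1 at 3 h as well for 300 of them. Those 300 could enter the table only through a root comparison, so a root response among them is set by the authors' choice of features. Among the 348, 52 were higher and 143 lower in roots. Whether such genes were silent in callus or failed to give an estimate cannot be told from folds.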

How the data were processed

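Roots and callus were sequenced as stranded polyadenylated libraries, per the labels' protocols, and the submitters' processing notes list CASAVA 1.8.1. Not given in the sources used here are the aligner, genome build, counting and normalization. The deposited tables, 2 copies that differ by 0, give 4 comparisons, each as a signed fold (a score, negative for reductions), a linear ratio and its log10, per the file headers. The headers do not name the reference. It was read as uninduced samples of the same tissue, from the transgenes' folds.

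Log2 folds were taken from the ratios with Python 3.11.15, numpy 2.4.6 and pandas 2.3.3, centred and subtracted, and drawn with matplotlib 3.10.9. The code recovered known classes in simulated data whose planted shifts lay well beyond the fold limit. That run checked the code alone and not the calls of features near the limit. The planned count and linear models could not be used without values per library, so depth per sample and precision are unknown. Lists match identifiers or description words. The members, the 34 lists and the rule were chosen with earlier results of these data known, and 9 lists were added after values were seen. Named were the 5 largest differences in each of 6 classes, every pigment gene, up to 4 of each other list by difference, and the features beside the 2-fold limit. Others are said to be chosen after their values were seen. The RefSeq gene table matched 0 identifiers, so no position or sequence is given. Alternatives were no centring, other fold limits and other filters on callus folds.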

Additional observations from a re-analysis of the deposited data

How the results depend on the processing

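In the order roots only higher, roots only lower, callus only higher, callus only lower, higher in roots and lower in callus, lower in roots and higher in callus, the counts were 123, 163, 280, 342, 44 and 55. At a 4-fold limit they were 58, 75, 110, 129, 7 and 15. At 1.5-fold, roots only higher came to 262 and the opposite groups to 87 and 113. With no minimum difference between tissues the 4 one-tissue counts were 248, 300, 496 and 590. Keeping features with a callus fold of exactly 1 gave 306 lower in roots only. Leaving out the features in bins of near-equal callus folds, a choice made after seeing the data, lowered the opposite groups to 27 and 34, and the callus-only counts to 225 and 255. All other settings (no centring, the other tissue under 1.5-fold, exact or repeated folds left out, and centring on the features kept, the last added after seeing the data) kept each count within 1.5 times. Of the medians of lists under these settings, 213 stayed within 0.5 of their value on the log2 scale and 6 moved by more. The late anthocyanin median of -0.64 was 0.05 with members by identifier only and -0.13 without the bins, and the early flavonoid median of 2.53 was 3.92 by identifier only and 2.03 with exact callus folds of 1 kept. The cortical cell-delineating median of -1.17 was -1.83 with exact callus folds of 1 kept. For seed storage, oil body and late embryogenesis abundant proteins, the median of -1.19 was -0.03 without the bins. No paired analysis was possible because the deposited tables give 1 fold per comparison and no values per library, and for the same reason the replicate block and leaving out each replicate were not run. What depth limits could not be judged.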
